A study of Mus musculus with 4 samples.

Results

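Transcripts of 10 genes that mark T cells and natural killer cells were followed across 4 arrays of mouse periodontal ligament. The genes were Cd3d, Cd3e and Cd3g, which encode chains of the CD3 complex, the co-receptor genes Cd4 and Cd8a, the cytotoxic granule genes Gzma, Gzmb, Nkg7 and Prf1, and the natural killer receptor gene Ncr1. They were chosen by name as lineage markers and are 10 of the 22911 genes that could be named on the array. Each gene was represented by its brightest probe, that is, the probe with the highest mean log2 signal over the arrays; 4 of the 10 genes had more than 1 probe, and 14 probes matched in all.

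Periodontal ligament (PDL) is the fibrous tissue that holds a tooth root in its bony socket. It was taken from wild-type (WT) mice and from Mkx knockout (Mkx-KO) mice at 10 and at 4 weeks of age, which made 4 groups with 1 array each. The product of Mkx, Mohawk, is a homeodomain protein that tendon and ligament cells use to switch on matrix genes. The labels give neither strain, sex nor number of mice, nor how Mkx was deleted, so whether the deletion reached blood cells is not known here.

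The T cell receptor reads out antigen through CD3: the gamma, delta and epsilon chains carry the signalling motifs that the receptor's own chains lack, and the chains are normally assembled together before the complex reaches the cell surface. CD4 marks helper and regulatory T cells in mice, and CD8 marks cytotoxic T cells. Cytotoxic T cells and natural killer cells kill through granules, in which perforin (Prf1) opens the target membrane for granzymes, and NKp46, the product of Ncr1, is a receptor used to recognise mouse natural killer cells. The periodontal ligament is known to hold few lymphocytes in health, and T cells gather there in periodontitis.

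In outline, the 10 genes did not move as 1 block. Cd3g, and to a smaller extent Cd3d, were highest on the WT array at 10 weeks, while Cd3e and Cd4 were highest at 4 weeks and nearly equal between genotypes. Gzma and Nkg7 were lowest on the Mkx-KO array at 4 weeks. Cd8a and Ncr1 were not well above background on any array.

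Promoters are shown for the members that parted from the rest. RefSeq promoter sequences of GRCm38.p6, running from 250 bases before to 50 bases after the start of the gene, were matched for 9 of the 10 genes, all but Cd4, and are printed 5′ to 3′ on the strand of the gene. The first pair, Nkg7 and Gzma, was low together on 1 array. Nkg7 lies at chr7:43436888-43437187 (+ strand) and Gzma at chr13:113100932-113101231 (- strand), and the capitals mark the RUNX motif TGTGGT, read here on the opposite strand as ACCACA.
Nkg7: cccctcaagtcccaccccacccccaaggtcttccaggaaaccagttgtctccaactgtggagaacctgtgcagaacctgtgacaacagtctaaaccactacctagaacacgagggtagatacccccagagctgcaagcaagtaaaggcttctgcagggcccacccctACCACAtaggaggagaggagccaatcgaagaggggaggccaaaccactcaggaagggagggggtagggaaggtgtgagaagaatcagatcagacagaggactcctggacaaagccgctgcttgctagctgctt
Gzma: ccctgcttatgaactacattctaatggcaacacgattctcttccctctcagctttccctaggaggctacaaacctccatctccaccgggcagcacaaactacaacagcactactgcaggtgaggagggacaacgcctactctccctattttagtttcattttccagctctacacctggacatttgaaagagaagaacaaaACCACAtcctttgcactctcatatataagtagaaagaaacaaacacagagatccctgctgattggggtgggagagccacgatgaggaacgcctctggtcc
The RUNX motif began 83 bases before the start of Nkg7 and 50 bases before that of Gzma. The second pair, Cd3g at chr9:44980382-44980681 (- strand) and Cd3d at chr9:44981536-44981835 (+ strand), was highest on the WT array at 10 weeks, and the capitals mark the E-box CACCTG.
Cd3g: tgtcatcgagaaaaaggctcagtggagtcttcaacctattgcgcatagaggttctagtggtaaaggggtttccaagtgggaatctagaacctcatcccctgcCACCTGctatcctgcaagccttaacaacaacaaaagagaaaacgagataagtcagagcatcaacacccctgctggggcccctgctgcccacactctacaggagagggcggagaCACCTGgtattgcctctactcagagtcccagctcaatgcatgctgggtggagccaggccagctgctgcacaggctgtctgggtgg
Cd3d: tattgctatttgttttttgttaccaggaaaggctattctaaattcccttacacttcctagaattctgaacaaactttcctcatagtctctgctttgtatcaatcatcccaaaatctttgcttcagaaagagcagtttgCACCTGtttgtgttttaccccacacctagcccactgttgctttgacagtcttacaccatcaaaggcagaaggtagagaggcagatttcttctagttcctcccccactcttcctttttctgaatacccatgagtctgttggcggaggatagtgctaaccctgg
In Cd3g the E-box began 148 and 35 bases before the start, and in Cd3d 112 bases before it.

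In total 8 motifs were searched on both strands, and each is given with the share of all 32851 promoters of the same length that hold it. The RUNX motif TGTGGT was present in the promoters of Gzma, Gzmb, Nkg7, Prf1 and Ncr1, and in 16.8% of all promoters, while the promoters of the CD3 genes and Cd8a lacked these letters. Its variant TGCGGT was present in Cd8a alone among the 9, and in 6.45% of all. The E-box CACCTG was found in Cd3d, Cd3e, Cd3g, Gzma and Prf1, against 20.2% of all. The T-box site AGGTGTGA was present in Nkg7 and in 1.28% of all promoters, and its shorter form TCACAC, which lies within that site on the other strand, in Gzmb, Nkg7 and Ncr1 and in 14.5% of all. The ETS motif AGGAAG was present in Cd3d, Cd3e, Nkg7 and Prf1 and in 35.4% of all, its variant CCGGAA in none of the 9 and in 14.9% of all, and the TATA box TATAAA in none of the 9 and in 13.6% of all. These matches describe letters in these windows and say nothing of binding in this tissue.

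A level below is the log2 processed signal of a probe less the 75th percentile of log2 signal on the same array, so that 0 is as bright as that percentile, and a difference is one level less another. Levels depend on the probe and were not compared between genes. The technical error of a difference, combined from the scanner software's estimates for both spots, was 0.20 to 0.35 for the 8 measured genes and covers no variation between mice. A gene was called at a 2-fold difference, provided that its probe was well above background on both arrays. No pair of arrays allows a test, since each group has 1 array, and in whole tissue fewer cells of a type and less RNA per cell cannot be told apart. The genotype comparisons ask whether the ligament differs without Mkx at each age.

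Mkx itself was lower on both knockout arrays, with log2 differences of -2.10 at 10 weeks and -1.65 at 4 weeks, in the direction of the labels, and remained well above background; whether its probe lies outside the deleted sequence is not known here. All 4 arrays were on 1 slide, with 61.8% to 66.6% of spots well above background and no saturated spot. Over all genes the median difference between genotypes was 0.01 at 10 weeks and 0.06 at 4 weeks. The Mkx-KO array at 4 weeks stood apart for tissues other than ligament: the summed level of 5 olfactory and nasal genes, in multiples of the 75th percentile, was 1.01 there against 94.2 to 197 on the other arrays, and that of 4 skeletal muscle genes 8.54 against 25.5 to 52.1. Ligament genes summed to between 1164 and 1183 on all 4 arrays. The brightest of these 7 genes make up most of that sum, so it does not register changes in the dimmer ones. Among them, Mkx was called between genotypes, and Scx, named after its values were seen, differed by -1.22 between 10 and 4 weeks in WT.

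The plot of the 10 genes by array shows these levels together.

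**Figure D1:**
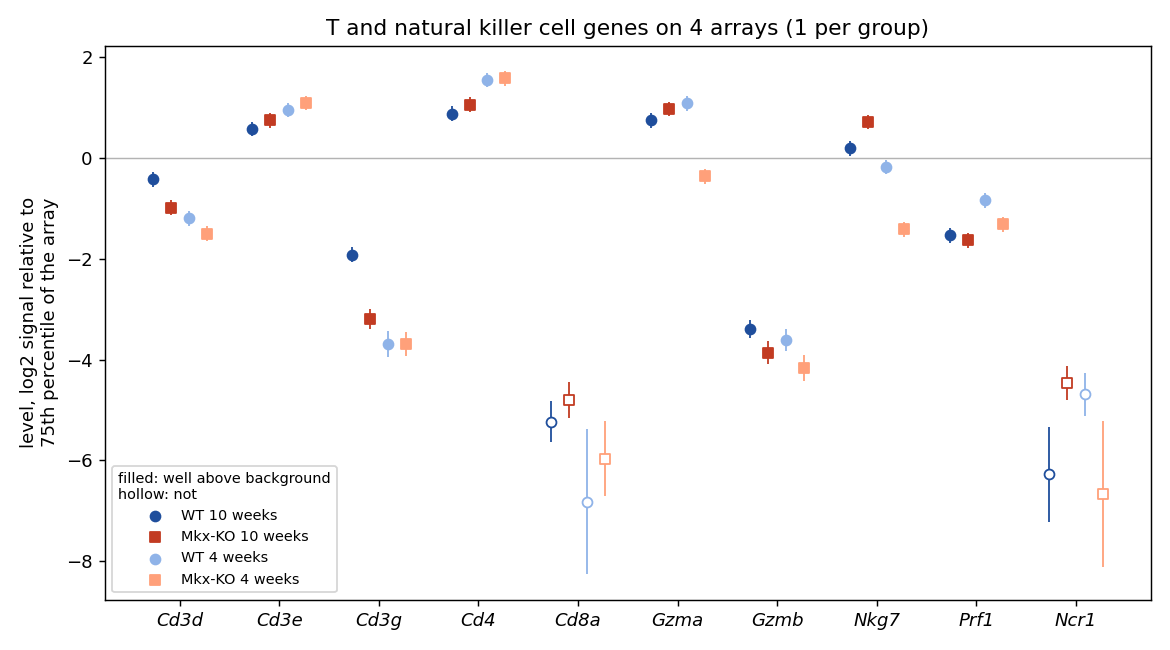
Level of each of the 10 genes on the 4 arrays (log2 processed signal relative to the array's 75th percentile). Each point is 1 array with the scanner software's technical error. Cd3g and Cd3d are highest on the WT array at 10 weeks, Gzma and Nkg7 are lowest on the Mkx-KO array at 4 weeks, and Cd8a and Ncr1 are not well above background on any array.

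Cd3g, encoding the gamma chain of CD3, had levels at 10 weeks of -1.92 in WT against -3.19 in Mkx-KO, and -3.69 in both WT and Mkx-KO at 4 weeks. The WT array at 10 weeks was thus high, and the other 3 spanned 0.50. At 10 weeks Mkx-KO was lower by 2.41-fold (log2 difference -1.27, technical error 0.25), while at 4 weeks the difference was -0.00 (technical error 0.35). It was the 1 member called at 10 weeks, where 1.37% of 16457 genes measured on both arrays were at least 2-fold lower in Mkx-KO and 1.04% at least 2-fold higher; no member was called higher. Signals of this probe were dim, between 20.6 and 81.8 in intensity, against 10.0 to 11.5 for the dimmest probes called well above background. With a background correction that models background and signal jointly (normexp), the difference at 10 weeks was -0.46 and the call was lost.

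Cd3d, encoding the delta chain, followed the same order with smaller steps. Its levels at 10 weeks were -0.42 for WT against -0.98 for Mkx-KO, and at 4 weeks -1.19 for WT against -1.497 for Mkx-KO. Only the step from the highest array to the next, 0.56, exceeded 2 technical errors. Mkx-KO differed from WT by -0.56 at 10 weeks and -0.31 at 4 weeks, both under the 2-fold limit. A second probe for Cd3d, dimmer on all 4 arrays, was highest on the same array, with differences of -1.04 at 10 weeks and -0.46 at 4 weeks, so that at 10 weeks it would pass the limit that the brighter probe did not reach.

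Cd3e, encoding the epsilon chain, ran the other way. Its levels at 10 weeks were 0.58 for WT against 0.75 for Mkx-KO, and at 4 weeks 0.95 for WT against 1.10 for Mkx-KO. No step between neighbouring arrays exceeded 2 technical errors, and the genotype differences were 0.17 at 10 weeks and 0.14 at 4 weeks. A second, much dimmer probe gave 0.23 and 0.07. The 3 chains of 1 complex therefore differed in order across the same 4 arrays: both probes of Cd3e were lowest on the WT array at 10 weeks, by under 2 technical errors, and that array was the highest for Cd3g and Cd3d.

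Cd247, the zeta chain of the same complex, was taken from the list of T cell receptor signalling genes and named after its values were seen. Its levels at 10 weeks were 2.85 for WT against 3.25 for Mkx-KO, and at 4 weeks 3.45 for WT against 3.50 for Mkx-KO, which is the order of Cd3e and not that of Cd3g. The genotypes differed by 0.06 at 4 weeks, within the technical error of 0.20, and only 1 probe was measured at that age. A second probe measured at 10 weeks put Mkx-KO higher by 0.74, against 0.41 for the brightest.

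Cd4 had levels at 10 weeks of 0.88 in WT against 1.06 in Mkx-KO, and at 4 weeks of 1.55 in WT against 1.58 in Mkx-KO. Both 4-week arrays were above both 10-week arrays, and the step of 0.49 between the ages exceeded 2 technical errors. The size of the age difference depended on the scaling. With the deposited scaled values it was -0.31 in WT and -0.23 in Mkx-KO, both within 2 technical errors. The genotypes differed by 0.18 at 10 weeks and 0.04 at 4 weeks, within the technical error of 0.20 in each case. A second probe of Cd4 was well above background on the Mkx-KO array at 10 weeks only and gives no comparison.

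Cd8a was not well above background with either of its probes. The signals of the brighter probe, in intensity, at 10 weeks were 8.23 for WT against 9.28 for Mkx-KO, and at 4 weeks 2.36 for WT against 4.59 for Mkx-KO. No difference is given for it, and no statement on CD8 T cells can rest on this probe. Cd8b1, encoding the partner chain of CD8 and named after its values were seen, was above background on all arrays with levels at 10 weeks of -1.83 in WT against -2.07 in Mkx-KO, and at 4 weeks of -2.54 in WT against -3.07 in Mkx-KO. Its genotype differences, -0.24 and -0.53, were under the 2-fold limit.

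Genes of the T cell surface and costimulation list included members that shared the order of Cd3g. Icos, a costimulatory receptor of activated T cells, had levels at 10 weeks of -1.29 in WT against -2.99 in Mkx-KO, and at 4 weeks of -3.38 in WT against -3.33 in Mkx-KO. Cxcr6, a chemokine receptor of tissue T cells and natural killer T cells that was named after its values were seen, had levels of -0.01, -1.18, -1.38 and -1.48 on the arrays in the same order, and its other probe gave -1.43 for the 10-week genotype difference beside -1.17 for the brightest. Both were high on the WT array at 10 weeks alone. Cd6, an adhesion receptor of T cells, likewise differed by -1.16 at 10 weeks and -0.26 at 4 weeks.

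Of the 16 genes of that list, 13 were measured on both 10-week arrays, and 3 (Icos, Cxcr6 and Cd6) were called lower in Mkx-KO and none higher, with a median difference of -0.35 against 0.01 over all genes. At 4 weeks 12 were measured, with a median of -0.11 and 1 call, Il2rb, the beta chain of the receptors for interleukins 2 and 15, at -1.20. Its second probe gave -0.47 at that age. Under normexp the 10-week differences of Icos and Cd6 were -0.82 and -0.60, below the limit.

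**Figure D2:**
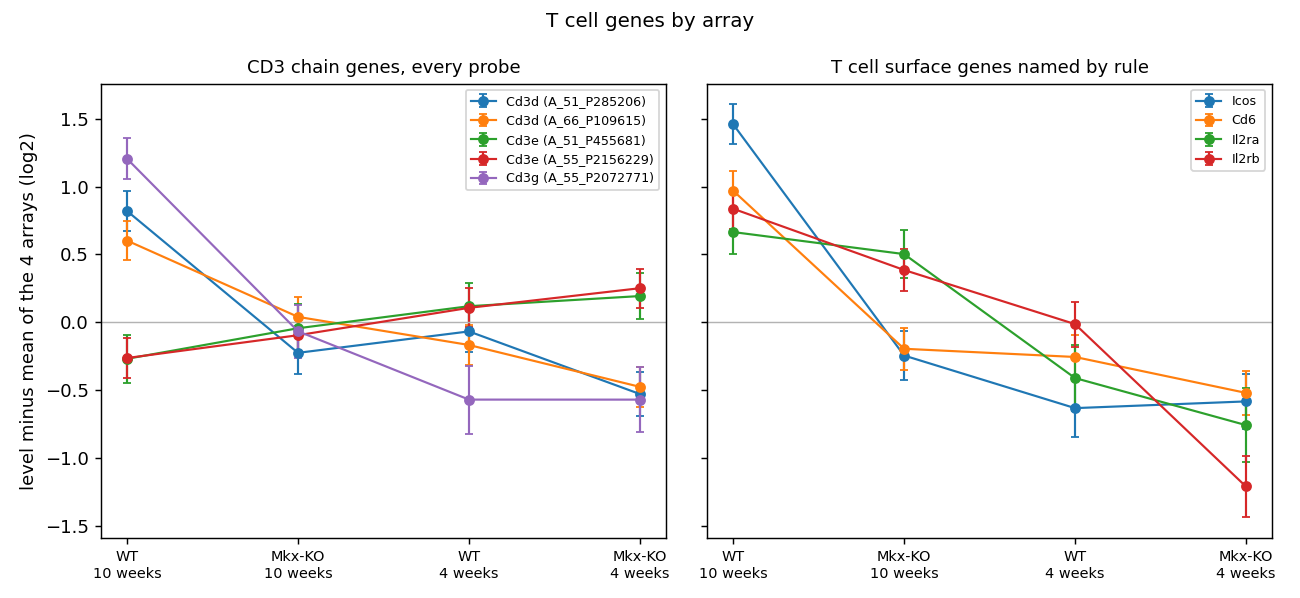
Levels of T cell genes on the 4 arrays, each less its own mean over the arrays (log2), with technical errors; lines join the points of 1 probe and imply no order. Left, every probe of Cd3d, Cd3e and Cd3g; right, Icos, Cd6, Il2ra and Il2rb. Cd3g, both probes of Cd3d and the 4 genes on the right are highest on the WT array at 10 weeks, where both probes of Cd3e are lowest.

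Ifng and Foxp3, both named after their values were seen, were near the background. Ifng encodes interferon gamma, made by activated T cells and natural killer cells, and its signals in intensity at 10 weeks were 39.2 for WT against 5.27 for Mkx-KO, and at 4 weeks 8.48 for WT against 14.7 for Mkx-KO. Foxp3, the lineage factor of regulatory T cells, had signals of 28.8, 7.60, 7.38 and 8.45 in that order and was well above background on the WT array at 10 weeks only. At 10 weeks Mkx-KO was at least 3.28-fold lower for Ifng and at least 2.41-fold lower for Foxp3, as bounds set by the dimmest probes called well above background.

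Chemokines that interferon gamma induces were likewise highest on the WT array at 10 weeks, and a link to Ifng was not tested. Cxcl9, whose product draws T cells through the receptor CXCR3, had levels at 10 weeks of 3.17 in WT against -2.56 in Mkx-KO, and at 4 weeks of -3.13 in WT against -4.00 in Mkx-KO. Cxcl10, a ligand of the same receptor, had levels of 1.96, -1.88, -1.56 and -1.23 on the arrays in that order. The WT array at 10 weeks stood far above the rest for both genes, while the lymphoid chemokines Ccl19 and Ccl21a differed there by 0.33 and -0.20. Epithelial genes also had their highest summed level on this array, 472 against 199 to 337 on the others, and 2 of 5 were called lower in Mkx-KO at 10 weeks. Olfactory and nasal genes had their highest sum there too, 197 against 110, 94.2 and 1.01, and all 5 were lower in Mkx-KO at 10 weeks, 2 of them called (Bpifb3 at -3.52 and Chil4 at -3.23, both named after their values were seen). The part of these tissues in the result was not tested.

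The receptor signalling genes behind CD3 had no genotype call at either age. Of 11 genes, 10 were measured at each age, with a median of 0.06 at 10 weeks and -0.24 at 4 weeks. Lat, the adaptor that kinases of the receptor phosphorylate, differed by 0.02 and -0.88. All 8 pan-leukocyte genes were higher in Mkx-KO at 10 weeks with none called, their median being 0.35. Ptprc, encoding the leukocyte surface protein CD45, differed by 0.09 and -0.06, although a second probe gave -1.25 at 4 weeks.

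Gzma, encoding the serine protease granzyme A, had levels at 10 weeks of 0.75 in WT against 0.97 in Mkx-KO, and at 4 weeks of 1.09 in WT against -0.36 in Mkx-KO. The Mkx-KO array at 4 weeks was low, and the other 3 lay within 2 technical errors of their neighbours. Mkx-KO was lower by 2.73-fold at 4 weeks (log2 difference -1.45, technical error 0.20) and differed by 0.22 at 10 weeks.

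Nkg7, encoding a membrane protein of cytotoxic granules, had levels at 10 weeks of 0.20 in WT against 0.72 in Mkx-KO, and at 4 weeks of -0.17 in WT against -1.42 in Mkx-KO. The same array was lowest, 1.24 below the next. Mkx-KO was lower by 2.36-fold at 4 weeks (log2 difference -1.24, technical error 0.21) and higher by 0.52 at 10 weeks, which is over 2 technical errors but under the 2-fold limit. With normexp the difference at 4 weeks was -0.94 and its call was lost, while that of Gzma kept its call at -1.21. These were the 2 members called at 4 weeks, where 3.31% of 15686 genes were at least 2-fold lower in Mkx-KO and 0.472% at least 2-fold higher; no member was called higher.

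Prf1, encoding the pore-forming protein perforin, had levels at 10 weeks of -1.53 in WT against -1.63 in Mkx-KO, and at 4 weeks of -0.84 in WT against -1.31 in Mkx-KO. It was highest on the WT array at 4 weeks, by 0.47 over the next, and its differences of -0.10 and -0.47 were not called. Gzmb, encoding granzyme B, had levels of -3.38, -3.86, -3.61 and -4.17 in the same array order, with differences of -0.48 and -0.56. No step between neighbouring arrays exceeded 2 technical errors for Gzmb, whose signals of 15.9 to 29.6 were close to the background. The local brightness around its probe ranged from -0.18 to 0.23 on the log2 scale over the arrays, the widest such range among the members. It is the median level of neighbouring spots, each less its mean over the arrays, so it is not a measure of the array surface alone.

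Ncr1 was not well above background on any array. Its signals in intensity at 10 weeks were 3.99 for WT against 11.8 for Mkx-KO, and at 4 weeks 10.3 for WT against 2.82 for Mkx-KO, and no difference is given for it. Ncr1 and Cd8a, the members that would best tell natural killer cells from CD8 T cells, therefore have no measured level, and the granule genes were not assigned to either cell type.

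Over the 8 measured members, 4 were lower and 4 higher in Mkx-KO at 10 weeks, with a median of 0.04 and a range of -1.27 to 0.52. At 4 weeks 6 were lower and 2 higher, with a median of -0.39 and a range of -1.45 to 0.14. The 6 include Cd3g at -0.0002 (technical error 0.35), which was 0.17 with quantile normalization and so has no clear direction. The medians over all genes were 0.01 and 0.06.

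Among natural killer receptor genes, Klrb1c stood out on the array on which Gzma and Nkg7 were low. Klrb1c, the gene of the NK1.1 antigen, had levels at 10 weeks of -2.34 in WT against -1.17 in Mkx-KO, and at 4 weeks of -0.67 in WT against -3.61 in Mkx-KO. The genotype difference was thus 1.16 at 10 weeks and -2.94 at 4 weeks. A second probe measured at 10 weeks gave 0.32, under the limit, and normexp gave 0.72 there. Of 12 natural killer receptor genes with a probe, 9 were measured at 10 weeks, with 1 called higher, none lower and a median of 0.25. At 4 weeks 6 were measured, all of them lower in Mkx-KO, with a median of -0.64 and 1 call, Klrb1c.

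Klrk1, encoding the activating receptor NKG2D, differed by -0.79 and -0.45, and Cd226, an adhesion and activating receptor, by 0.68 and -0.74. Klra4 and Klra8 belong to the Ly49 receptor family, whose genes are so alike that a probe may read more than 1 of them. Klra4 differed by 0.36 and -0.63. Klra8, named after its values were seen, was not well above background on the Mkx-KO array at 4 weeks, with a bound of at least 2.20-fold below WT. Klrc1 and Klre1 were below that limit on every array.

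**Figure D3:**
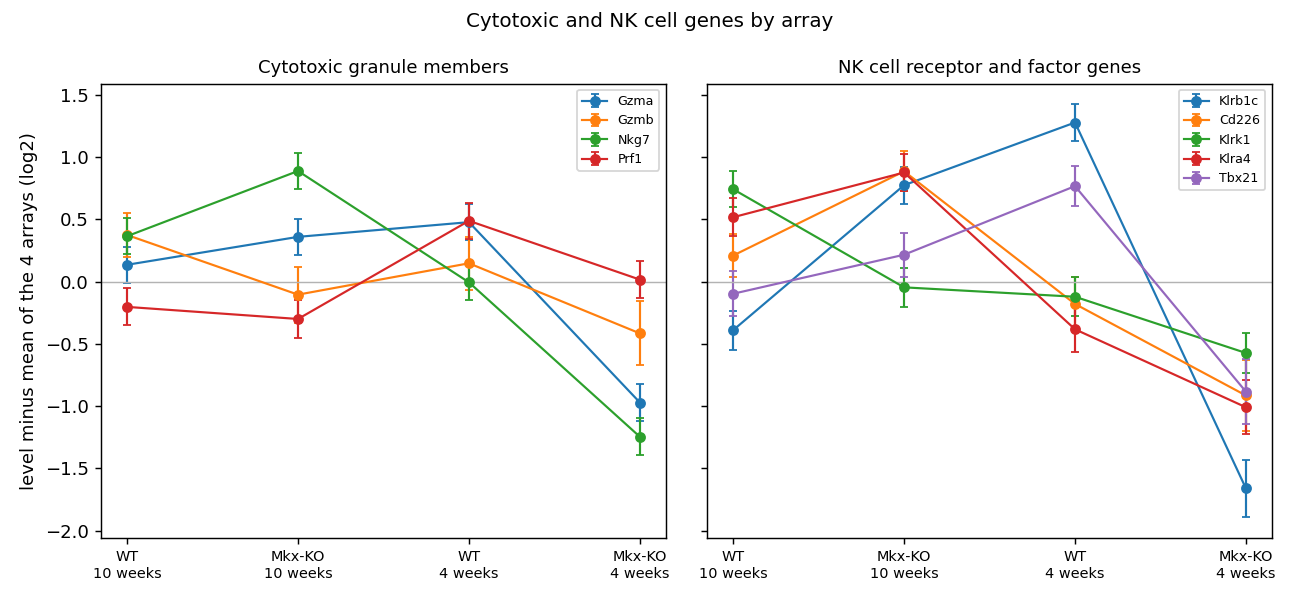
Levels of cytotoxic and natural killer cell genes on the 4 arrays, each less its own mean over the arrays (log2), with technical errors; lines join the points of 1 gene and imply no order. Gzma, Gzmb, Nkg7 and the 5 genes on the right (Klrb1c, Cd226, Klrk1, Klra4 and Tbx21) are lowest on the Mkx-KO array at 4 weeks, and Prf1 is not.

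Tbx21 and Eomes encode T-bet and eomesodermin, the T-box factors of cytotoxic lymphocytes. Tbx21 had levels at 10 weeks of -3.37 in WT against -3.05 in Mkx-KO, and at 4 weeks of -2.50 in WT against -4.15 in Mkx-KO, a genotype difference of 0.31 at 10 weeks and -1.65 at 4 weeks. Eomes, named after its values were seen, had signals in intensity of 29.0 (WT) and 34.0 (Mkx-KO) at 10 weeks, then 51.0 (WT) and 8.71 (Mkx-KO) at 4 weeks, the last not well above background. The 4-week Mkx-KO array gave a bound of at least 4.89-fold below WT for this gene. Both genes were highest in WT and lowest in Mkx-KO at that age. With normexp the difference of Tbx21 at 4 weeks was -0.59, below the limit.

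Other factors of T cells had no genotype call. Gata3, needed for T cell development and for type 2 helper cells, differed by -0.30 and -0.75, and Lef1, a factor of immature T cells that ligament and epithelial cells can also express, by -0.12 and 0.12. Of 10 such genes, 9 were measured at 10 weeks with a median of -0.20 and none called, and 8 at 4 weeks with a median of -0.09 and 1 call, Tbx21.

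Further granule and effector genes were mostly unmeasured. Of 15 genes, 6 were measured on both 10-week arrays, none was called and the median was -0.09. At 4 weeks 7 were measured, with a median of -0.18 and 1 call, Gzme, higher in Mkx-KO by 1.04. Gzme is named because it stands alone in that direction, and it belongs to a cluster of near-identical granzyme genes, of which Gzmd, Gzmf and Gzmg were not above background on any array. Gzmm, another granzyme, differed by -0.39 and -0.86, Ccl5, a chemokine stored by cytotoxic cells, by -0.06 and -0.66, Serpinb9, which inhibits granzyme B, by -0.52 and -0.17, and Ctsw, a cathepsin of cytotoxic cells, by 0.10 and -0.40.

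**Figure D4:**
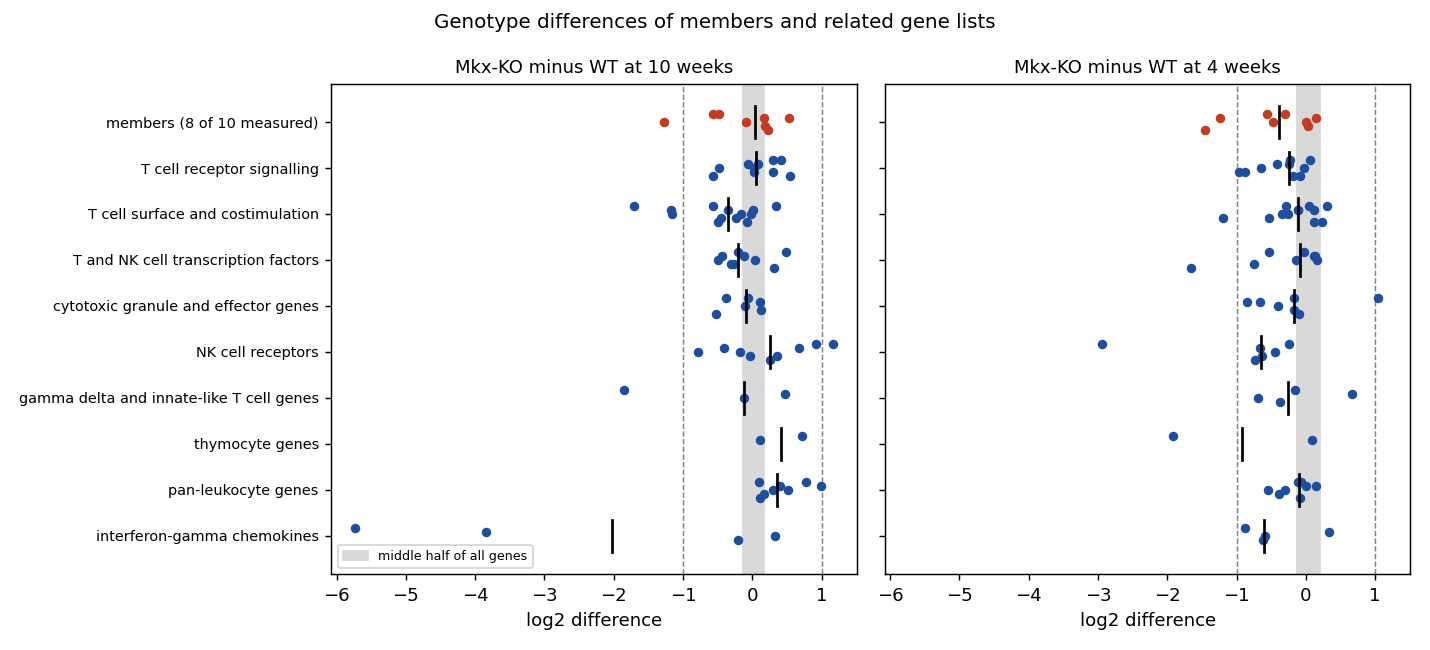
Genotype differences (log2, Mkx-KO minus WT) at 10 weeks, left, and 4 weeks, right, for the members and the context lists. Each point is 1 gene well above background on both arrays, black bars are medians, dashed lines mark 2-fold and the grey band spans the middle quartiles of all genes. The 6 natural killer receptor genes measured at 4 weeks all lie below 0, and Cxcl9 and Cxcl10 lie far below the rest at 10 weeks.

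Markers of other cells moved on the same array. All 7 neutrophil genes were lower in Mkx-KO at 4 weeks, 5 of them called, with a summed level of 341 against 676 to 1153 on the other arrays and a median difference of -1.13. All 4 skeletal muscle genes and all 5 olfactory and nasal genes were called lower there. Of the pan-leukocyte genes 6 of 8 were lower, none called, with a median of -0.10, and macrophage genes had a median of -0.09. Of the mast cell genes 5 of 6 were lower, 1 called (Ms4a2 at -1.01, named after its values were seen), with a median of -0.59, and of the dendritic cell genes 5 of 6 measured were lower, none called, with a median of -0.22. Of 6 B cell genes 3 were called higher in Mkx-KO at each age and none lower, with medians of 1.09 and 1.03. The part of these cells and tissues in the levels of Gzma, Nkg7 and the natural killer genes was not tested, and with 1 array the tissue taken and the genotype cannot be told apart.

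Dntt, which encodes the enzyme that adds bases to receptor genes in developing lymphocytes, had levels at 10 weeks of -1.03 in WT against -0.32 in Mkx-KO, and at 4 weeks of 0.38 in WT against -1.54 in Mkx-KO. Like Gzma and Klrb1c, it was lowest in Mkx-KO at 4 weeks. Dntt and Klrb1c were highest in WT at that age, where Gzma lay within 2 technical errors of the next array. Rag1, Rag2 and Ptcra, the other defining genes of developing lymphocytes on that list, were not well above background on any array. Arpp21, also listed and named after its values were seen, had signals of 6.07 (WT) and 17.9 (Mkx-KO) at 10 weeks. At 4 weeks they were 34.4 (WT) and 2.67 (Mkx-KO), the array order of Dntt, with only 17.9 and 34.4 well above background. Cd1d1, the last of the list, differed between genotypes by 0.11 at 10 weeks and 0.08 at 4 weeks.

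**Figure D5:**
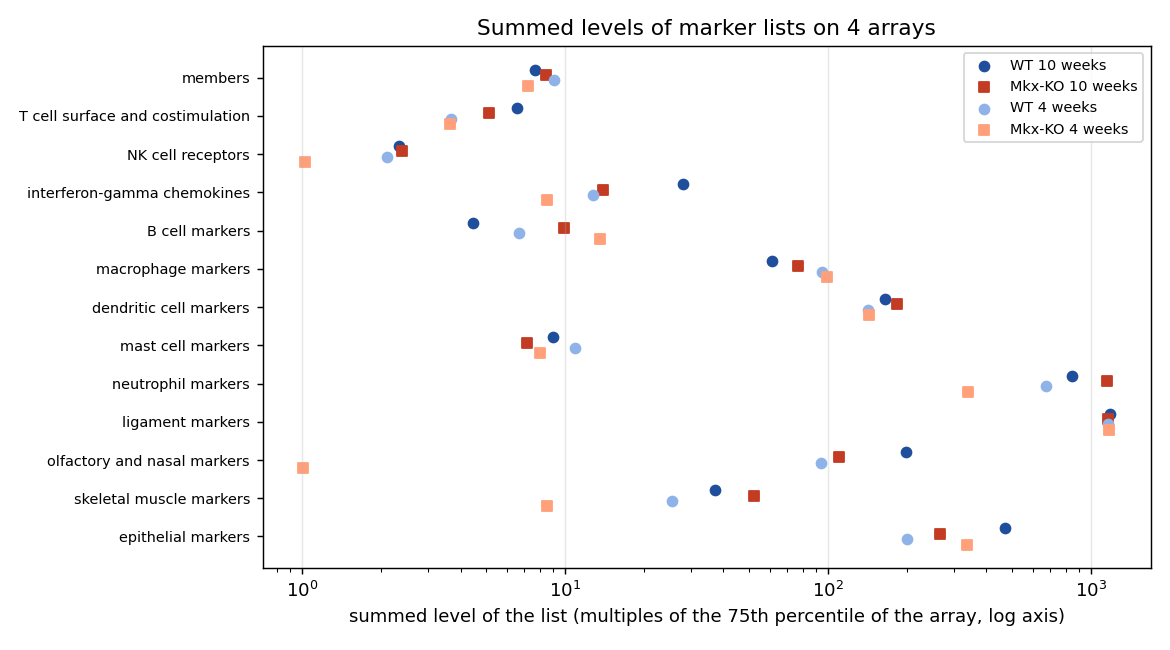
Summed level of gene lists on each of the 4 arrays, in multiples of the array's 75th percentile of signal (log axis). The natural killer receptor, neutrophil, muscle and olfactory and nasal genes have their lowest sum on the Mkx-KO array at 4 weeks. So do the members, the interferon-gamma chemokine list and, by little (3.66 against 3.69 for WT at 4 weeks), the T cell surface genes. The chemokine list also holds Ccl19 and Ccl21a, and Ccl21a makes up most of its sum on that array. Cxcl10 alone was not lowest there, with a level of -1.23 against -1.88 for Mkx-KO at 10 weeks. Ligament genes keep nearly the same sum on all arrays, a sum made up mostly by the brightest of them.

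The age comparisons ask how the ligament differs between 4 and 10 weeks within each genotype. In WT, Cd3g was the 1 member called, 3.42-fold higher at 10 weeks (log2 difference 1.77, technical error 0.29), where 5.01% of 16102 genes were at least 2-fold higher and 3.83% at least 2-fold lower. Cd3d was higher by 0.77, and Prf1 and Cd4 differed by -0.69 and -0.67. Of the 8 measured members 4 were higher and 4 lower, with a median of -0.06 against -0.10 over all genes. Calls of all genes depended on the scaling: 43.4% of them were lower at 10 weeks, and 17.1% with the deposited scaled values, which shift the median of all genes by 0.36. In the deposited scaling Cd3d reached 1.12, past the 2-fold limit, and that value includes the shift. With the same shift Cd4 shrank to -0.31, Prf1 to -0.34 and Cd3e, which was -0.37 in the main scaling, to -0.01.

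In Mkx-KO, Nkg7 was 4.39-fold higher at 10 weeks (log2 difference 2.13, technical error 0.21) and Gzma 2.51-fold (1.33, technical error 0.20). These were the 2 members called, where 6.25% of 15669 genes were at least 2-fold higher and 3.84% at least 2-fold lower. Of the 8 members 5 were higher and 3 lower, with a median of 0.41 against -0.15 over all genes. Of the calls of all genes 38.0% were lower at 10 weeks, and 14.6% with the deposited scaling, which shifts the median of all genes by 0.29. The Mkx-KO array at 4 weeks enters both this comparison and the genotype comparison at that age, so the 2 values of each gene are not independent.

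T cell surface genes were mostly higher at 10 weeks in WT. Of 12 measured, 11 were higher and 5 were called, with a median of 0.88. The 5 were Icos at 2.09, Cxcr6 at 1.37, Cd6 at 1.23, Il7r, the receptor of interleukin 7, at 1.10, and Il2ra, the alpha chain of the interleukin 2 receptor, at 1.08. In Mkx-KO 13 were measured, with a median of 0.34 and 3 called, Il2rb at 1.60, Il2ra at 1.26 and Il7r at 1.23. The second probe of Il2rb gave 0.87 there, under the 2-fold limit. Il7r was named after its values were seen. In WT, Ifng and Foxp3 were at least 2.93-fold and 2.16-fold higher at 10 weeks.

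Signalling genes of the T cell receptor had medians of 0.13 in WT and 0.59 in Mkx-KO, where Lat was called higher at 1.75. Rasgrp1, an activator of Ras in T cells, differed by -0.34 and 0.92. Natural killer receptor genes had a median of 0.47 in WT, with Klrb1c called lower at -1.67, although its second probe gave -0.18. In Mkx-KO their median was 1.26, and 3 of 6 were called higher, Klrb1c at 2.44, Klra4 at 1.89 and Cd226 at 1.80. Klra8 was at least 5.83-fold higher at 10 weeks in Mkx-KO.

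Among transcription factors, Eomes was called lower at 10 weeks in WT at -1.02, and in Mkx-KO Gata3 and Tbx21 were called higher at 1.36 and 1.10. Zbtb16, encoding PLZF, the factor of innate-like T cells and also a gene of mesenchymal cells, was higher at 10 weeks in both genotypes, by 1.98 and 2.24. Cd163l1, a scavenger receptor gene of gamma delta T cells, was higher at 10 weeks in WT by 1.06, and its genotype difference at 10 weeks was -1.85. Sox13, a factor of gamma delta T cells that other tissues express as well, was lower at 10 weeks in both genotypes. Its differences were -2.14 in WT and -0.99 in Mkx-KO, the latter just under the 2-fold limit. Il17a and Il17f were not well above background on any array. Apart from the members Gzma and Nkg7, Gzmm was the 1 gene called for age on the list of further granule and effector genes. It was higher at 10 weeks in Mkx-KO by 1.22.

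A single fit over all 4 arrays was possible, with genotype and age as terms in limma, and it leaves 1 residual degree of freedom. Of 16795 genes fitted, none passed an adjusted p of 0.05 (Benjamini-Hochberg) for genotype, lower or higher (0% each), nor for age (0% each), and so none of the 8 members fitted did. At an unadjusted p under 0.05 limma listed 455 genes for genotype (2.71% of those fitted), among them 1 of the 8 members. For age it listed 4075 (24.3%), among them 2 of the 8 members, which is near the share of all genes. Among members Gzmb had the lowest unadjusted limma p for genotype, 0.0306, with an adjusted limma p of 0.9998. Its log2 difference was -0.52 (SE 0.13), Mkx-KO lower at both ages. With normexp the Gzmb difference was 0.04 at 10 weeks and -0.31 at 4 weeks, so the lower level at 10 weeks depended on the processing. Cd4 had the lowest unadjusted limma p for age, 0.0241, with an adjusted limma p of 0.179. Its log2 difference was -0.59 (SE 0.13), lower at 10 weeks in both genotypes. Cd3d followed, with a log2 difference of 0.64 (SE 0.15), higher at 10 weeks in both genotypes, and an adjusted limma p of 0.18.

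The genes called for 1 age or genotype alone had wide errors in this fit, which assumes equal genotype effects at both ages. The genotype estimate was -0.64 (SE 0.40) for Cd3g, -0.61 (SE 0.52) for Gzma and -0.36 (SE 0.54) for Nkg7. With an interaction term no degree of freedom is left, so the difference in genotype effect between ages could not be tested for any of them.

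The 5 genes whose centred levels lay nearest to the mean pattern of Cd3d, Cd3e and Cd3g were taken from 15501 genes measured on all 4 arrays. That mean pattern was 0.51 (WT) and -0.04 (Mkx-KO) at 10 weeks, then -0.21 (WT) and -0.26 (Mkx-KO) at 4 weeks, and it hides the opposite order of Cd3e. The genes were Glt28d2, Idi1, Phf11b, Gask1a and Mcm9, with root mean square distances of 0.00935, 0.0269, 0.0276, 0.0312 and 0.0329 log2 units. With 4 arrays many genes fall near any such pattern, and these distances are smaller than the technical error of a single difference.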

How the data were processed

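RNA of 4 samples of PDL was labelled with Cy3 and hybridised to 1-colour Agilent arrays, 1 array per group, per the labels. Per the file headers, the values used are intensity on a linear scale from Agilent Feature Extraction 11.5.1.1, background-subtracted and detrended by that software. The deposited series table holds the same intensity times 1 factor per array, 1.81, 2.08, 1.64 and 1.54 for the arrays in the order WT then Mkx-KO, 10 weeks first; how these were chosen is not given in the sources used here.

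Control and outlier spots were left out and spots of 1 probe averaged on the log2 scale. Probes were named through RefSeq accessions with a gene table of GRCm38.p6; 32994 of 56604 probes (58.3%) matched, and the array's own annotation is on mm9, so no position is given beyond the GRCm38.p6 coordinates of the promoter table. The log2 values computed from the software's processed intensity, without the array factors of the deposited table, were centred on the 75th percentile of each array. Where 1 array of a pair was dim, its dimmest measured probe set a bound. limma 3.58.1 in R 4.3.3 was tested on simulated data; the rest ran in Python 3.11.15 with pandas 2.3.3, numpy 2.4.6 and, for figures, matplotlib 3.10.9. The number of arrays limits the precision.

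Named genes are the 10 members, Mkx, up to 3 genes per context list that differed most, on average, for genotype and for age, and the 5 genes most like the CD3 pattern; the text marks each measured gene named outside this rule, genes named only as not above background also fall outside it, and some genes that it takes are not reported here. Members and the 18 lists (143 of 148 genes matched) were chosen with earlier results of these data known. Alternatives were quantile and median scaling, the deposited values, normexp (offset 50, on the median spot signal, since the mean signal planned is not used here), the mean over probes, no background filter, thresholds of 1.5-fold and 3-fold, other forms of the limma fit and, added after seeing the data, the other probe and the local brightness.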

Additional observations from a re-analysis of the deposited data

Results flagged for a closer look

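For some genes the genotype difference had opposite signs at the 2 ages. The smaller of both differences was within 2 technical errors for Gzma, Tbx21 and Cxcl10, so an opposite direction is not shown for these. The difference between ages was not tested for any of them, because each group has 1 array. For Gzma, the Mkx-KO minus WT log2 difference was 0.22 at 10 weeks and -1.45 at 4 weeks, which lie 1.67 apart. Nkg7 differed by 0.52 and -1.24, which lie 1.76 apart.

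Among genes of the context lists, Tbx21 differed by 0.31 and -1.65, 1.96 apart, Klrb1c by 1.16 and -2.94, 4.10 apart, and Dntt by 0.71 and -1.92, 2.63 apart. In each of these, Mkx-KO was above WT at 10 weeks and below it at 4 weeks. Cxcl10 ran the other way, at -3.84 and 0.34, and its 10-week value less its 4-week value was -4.17.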

How the results depend on the processing

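No paired analysis was possible because each group has 1 array. No member value changed its side of 0 where it was called. Of 200 alternative values of the 8 measured members, 165 moved by less than the technical error and 35 by more, 14 of these with the deposited scaling and 10 with normexp. The calls of members, 1 and 2 for genotype at 10 and 4 weeks and 1 and 2 for age in WT and Mkx-KO, became 0, 1, 0 and 2 with normexp, 0, 0, 1 and 1 with a 3-fold threshold, and 2, 3, 3 and 4 without the background filter, which lets Cd8a and Ncr1 in at background. For age in WT they became 2 with the deposited scaling (Cd3d added) and 4 with a 1.5-fold threshold (Cd3d, Cd3g, Cd4 and Prf1). The cause of the loss under normexp was not tested. Among genes named from the context lists, normexp also ended the genotype calls of Icos, Cd6, Cd163l1 and Klrb1c at 10 weeks and of Tbx21 and Il2rb at 4 weeks. Over all genes the calls fell from 396, 593, 1423 and 1581 to 150, 259, 705 and 815 with normexp and to 86, 246, 491 and 569 at 3-fold, and rose to 1469, 1546, 3752 and 4298 at 1.5-fold and to 1384, 2071, 2919 and 3446 without the filter. With the mean over probes the age differences of Cd4 were 0.02 in both genotypes, since its dim probe enters. In every form of the limma fit 0 members passed. Over all genes the age term had 31 calls with normexp and 5 without genotype as a covariate, and 0 in the other forms. Dim probes (Cd3g, Gzmb) and the 2 members at background limit what can be read from these arrays.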
